A study of Mus musculus with 21 samples.

Results

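Granzymes are serine proteases stored in the cytotoxic granules of killer lymphocytes, and perforin is the pore-forming protein that lets them reach the cytosol of a target cell. This account covers 9 granzyme genes of the mouse (Gzma, Gzmb, Gzmc, Gzmd, Gzme, Gzmf, Gzmg, Gzmk and Gzmm) and the perforin gene Prf1, 10 of the 55487 gene identifiers in the deposited table. They were chosen by symbol as a gene family, with no measured value in the rule, and all 10 passed the filter on low counts. RNA was measured in 21 tumours of Hepa1-6, a mouse hepatoma cell line, in C57BL/6 mice of 2 kinds, WT and B-cell depleted, given either isotype antibody or anti-PD1 plus anti-CTLA4 (the combination). The WT arms held 5 libraries each, and the B-depleted arms held 6 under isotype and 5 under the combination. The tumour line and host strain were shared by all arms. The means of depletion, the age and sex of the mice, the doses and times, and whether libraries were separate animals were not given in the sources used here, so the p-values measure the spread between these samples. The series asks what part B cells play in the response of hepatocellular carcinoma to the antibodies.

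Granzyme B cleaves caspases and other substrates after aspartate and triggers apoptosis of the target cell. Granzyme A cuts after basic residues, granzyme K shares that preference, and granzyme M prefers methionine or leucine. The genes Gzmc to Gzmg are rodent relatives of Gzmb that lie beside it and are known from strongly activated killer lymphocytes. CD8 T cells and natural killer (NK) cells are the main sources of these transcripts, and PD1 and CTLA4 are receptors that restrain T cells.

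The genes lie in 4 places of the genome (GRCm38, GENCODE M21 gene bounds). On chromosome 14, all on the minus strand, lie Gzme (chr14:56117626-56120625), Gzmd (chr14:56129556-56132608), Gzmg (chr14:56156582-56159579), Gzmf (chr14:56205263-56211417), Gzmc (chr14:56231441-56234656) and Gzmb (chr14:56258838-56262260). On chromosome 13, also on the minus strand, lie Gzma (chr13:113093825-113100981) and Gzmk (chr13:113171608-113225908). Prf1 (chr10:61297833-61304680) and Gzmm (chr10:79689020-79695261) lie apart from each other on the plus strand of chromosome 10. Exons of another gene overlap those of 1 member, Gzmf, whose partner Gm4022 is on the opposite strand. Whether the counting used strand is not given in the sources used here.

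The promoters of the 5 neighbours of Gzmb were alike, with 86.1% to 94.0% of aligned bases identical in any pair. A stretch of 60 bases upstream of each RefSeq start site is printed below (GRCm38.p6, minus strand, 5′ to 3′). Each was cut around the gene's match to TGANNTCA, a sequence like the cyclic AMP response element (CRE), which capitals mark. The matches therefore line up by choice. Relative to the start they begin at positions from -57 (Gzmc) to -82 (Gzmf).
Gzmc, chr14:56234667-56234726: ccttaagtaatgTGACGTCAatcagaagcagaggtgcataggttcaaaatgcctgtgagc
Gzmd, chr14:56132607-56132666: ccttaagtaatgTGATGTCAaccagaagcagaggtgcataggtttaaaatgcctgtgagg
Gzme, chr14:56120640-56120699: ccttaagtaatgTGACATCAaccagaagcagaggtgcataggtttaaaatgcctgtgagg
Gzmf, chr14:56211442-56211501: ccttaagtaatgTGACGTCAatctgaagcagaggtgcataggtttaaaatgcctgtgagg
Gzmg, chr14:56159609-56159668: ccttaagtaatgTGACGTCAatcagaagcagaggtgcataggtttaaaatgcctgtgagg
Any 2 of the 5 stretches matched at 93.3% to 98.3% of the 60 bases. The full palindrome TGACGTCA, searched on both strands, was in the promoters of Gzmc, Gzmf and Gzmg and in 1.79% of 32851 RefSeq promoters of 300 bases (250 before and 50 after the start). The looser TGANNTCA, which contains it, was in all 5 and in 14.1% of promoters.

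The Gzmb promoter is different from its neighbours, with 59.6% to 63.2% of aligned bases identical. It is printed (chr14:56262305-56262584, GRCm38.p6, minus strand, 5′ to 3′, from 250 bases before to 30 after the RefSeq start) because Gzmb carries the most counts of any granzyme here; capitals mark, in order, a match to TGANTCA (AP-1), to TGTGGTT (RUNX) and to GACGTCA (the CRE without its first base).
Gzmb: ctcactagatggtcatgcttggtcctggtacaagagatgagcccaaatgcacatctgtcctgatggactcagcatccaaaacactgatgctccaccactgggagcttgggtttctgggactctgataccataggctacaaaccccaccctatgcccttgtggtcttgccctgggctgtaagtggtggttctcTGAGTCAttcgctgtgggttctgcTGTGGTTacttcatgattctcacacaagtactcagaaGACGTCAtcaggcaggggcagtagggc
AP-1 matches were in 7.81% of promoters and, among these genes, in Gzmb alone. RUNX matches were in 5.27% of promoters and in those of 7 of the genes (Gzma to Gzmg in alphabetical order). GACGTCA, which lies within the full palindrome, was in 3.21% of promoters and in those of Gzmb, Gzmc, Gzmf and Gzmg. The T-box sequence GGTGTGA, in 3.98% of promoters, was found for Gzmk and Gzmm. Both windows with it lie inside the gene bounds given above (chr13:113180916-113181215 and chr10:79693576-79693875). Gzmm also has a RefSeq window at the start of the gene, which held no T-box match. TTCNNNGAA, the STAT sequence, was in 8.30% of promoters and in those of Gzmb and Gzmm. None of these letters was found in the Prf1 window. Matches describe the sequence only.

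Reads of the cluster can be hard to place where transcripts are alike. Those of Gzmd, Gzme, Gzmf and Gzmg were 86.4% to 94.8% identical in pairs, with Gzmd and Gzme the closest. The Gzmc transcript was less like them, at 74.0% to 75.5%, and was 76.2% identical to that of Gzmb. Of all 50-base windows, 21.9% in Gzmd, 20.6% in Gzme, 19.8% in Gzmg, 7.36% in Gzmf and 4.14% in Gzmc also occurred in a transcript of another gene, and none did in Gzma, Gzmb, Gzmk, Gzmm or Prf1. For windows of 100 bases the share was at most 0.247%. How the authors counted such reads, and the read length, were not given in the sources used here, so the split of counts among Gzmc to Gzmg is uncertain.

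Library totals ran from 9.52 to 19.17 M counts and were lowest in the B-depleted combination arm (9.52 to 14.01 M). The 8 hepatocyte and hepatoma markers summed to 1690 to 5935 CPM (counts scaled to the library total) in WT isotype, 469 to 1917 in WT combination, 2367 to 4800 in B-depleted isotype and 1367 to 3483 in B-depleted combination, so the labelled tumour type was seen in every library. The 7 B-cell markers summed to 2.04 to 4.53 CPM in WT isotype and 6.02 to 23.1 in WT combination, against 0.188 to 3.21 and 0.819 to 6.43 in the B-depleted arms. The lowest WT isotype sum was reached by 4 B-depleted libraries. B-depleted combination replicate 5 (6.43 CPM) was above WT combination replicate 1 (6.02 CPM). In the tumours as a whole, fewer killer cells and less of a transcript per cell cannot be told apart.

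Counts of a member are small parts of these libraries. Over all 21, Prf1 held 10975 counts, Gzmb 7964, Gzmf 2074, Gzma 1848, Gzmk 1622, Gzmd 1141, Gzmc 924, Gzme 839, Gzmg 371 and Gzmm 241. Gzmg had 0 to 6 counts in each isotype library and Gzmm had 3 to 19 in any library, so their values are the least precise.

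Per kilobase of exon, Gzmb and Prf1 were the highest of the 10 in each arm. Their means were 8.07 ± 2.39 and 6.99 ± 2.07 CPM per kb in WT isotype (SD, n = 5), 36.2 ± 10.2 and 24.5 ± 3.03 in WT combination (n = 5), 7.44 ± 2.7 and 5.89 ± 1.97 in B-depleted isotype (n = 6), and 18.7 ± 2.44 and 17.8 ± 2.19 in B-depleted combination (n = 5). The spreads of these neighbours in the order overlapped in each arm. Gzmf and Gzma came next on this scale in both combination arms, at 15.3 ± 5.71 and 11.6 ± 2.34 CPM per kb in WT and 8.16 ± 3.84 and 5.22 ± 0.700 in B-depleted tumours, and their spreads overlapped as well. In both combination arms Prf1 lay above Gzmf by more than the SDs. Gzmm was last there, at 0.544 ± 0.129 and 0.475 ± 0.168, and Gzmg was last in both isotype arms, at 0.179 ± 0.151 and 0.246 ± 0.126.

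The shares of Gzmb and of Gzmc to Gzmg in the granzyme total overlapped between arms, and that of Gzmm did not between isotype and combination. Of the granzyme total per kb, Gzmb made up 38.7% ± 4.82 in WT isotype, 39.2% ± 4.09 in WT combination, 36.2% ± 7.42 in B-depleted isotype and 37.6% ± 4.19 in B-depleted combination tumours (SD, n = 5, 5, 6 and 5). Gzmc to Gzmg together made up 38.5% ± 13.5, 38.6% ± 8.81, 38.0% ± 17.9 and 42.0% ± 8.53 in the same order. Single libraries ranged much more widely: the share of Gzmc to Gzmg ran from 15.3% to 64.0% within B-depleted isotype alone. The share of Gzmm ran from 1.27% to 2.71% in WT isotype and from 0.382% to 0.978% in WT combination. In B-depleted tumours it ran from 1.83% to 4.61% under isotype and from 0.369% to 1.46% under the combination. Gzmm in CPM overlapped between isotype and combination in each background, and any gene that does not rise with the granzyme total falls in share. The fall in share is therefore not shown to be particular to Gzmm. The granzyme total itself was 21.1 ± 6.91, 92.5 ± 24.6, 20.1 ± 3.87 and 50.5 ± 10.8 CPM per kb.

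In WT tumours 9 of the 10 genes rose with the combination, all but Gzmm, in a comparison in which 25.0% of the 19061 genes tested were called higher and 50.0% were called either way (edgeR quasi-likelihood test, Benjamini-Hochberg adjustment across every gene tested, threshold 0.05). Their median log2 fold change, Gzmm included, was 2.06, beside 0.00 over all genes. In B-depleted tumours 3 of 10 rose, Prf1, Gzmb and Gzmf, where 0.304% of genes were called higher and 0.341% either way; the median was 1.40 beside 0.02 over all genes. Under isotype antibody, B-depleted against WT, 0 of 10 passed and 0% of genes did; DESeq2 also called 0 members, beside 0.0127% of its genes, and 1, Gzmf, had an unadjusted edgeR p under 0.05. Under the combination, B-depleted against WT, 3 of 10 fell, Gzma, Gzmb and Gzmc, where 13.5% of genes were called lower and 29.1% either way, and the median was -0.88 beside 0.00 over all genes. The difference between the antibody responses of the 2 backgrounds (interaction) passed for 0 of 10 by edgeR, where 0.0262% of genes passed, and for 0 by DESeq2, where 6.68% of its genes passed; 2, Gzma and Gzmb, had an unadjusted edgeR p under 0.05, and the median was -0.89 beside 0.01 over all genes. The comparisons share arms: each combination arm and each isotype arm enters 2 of the 4 pairwise comparisons. Without the 4 B-depleted libraries with B-cell transcripts (isotype replicates 3 and 5, combination replicates 2 and 5), 9, 2, 0, 3 and 0 members were called in the order given, beside 51.1%, 0.724%, 0%, 35.0% and 0.00510% of all genes either way. Without WT isotype replicates 1 and 2, which were low in liver transcripts, 9, 3, 0, 2 and 0 were, beside 49.3%, 0.202%, 0.126%, 29.1% and 10.1% of all genes.

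By whole groups of libraries, 6 genes (Prf1, Gzmb, Gzma, Gzmk, Gzmc and Gzmg) had every WT combination library above every WT isotype library, as had 15.0% of all genes tested. In B-depleted tumours 5 did (Prf1, Gzmb, Gzmk, Gzmf and Gzmg), beside 1.14% of all genes. Under the combination, 2 genes, Gzma and Gzmb, had every B-depleted library below every WT library, beside 6.03% of all genes.

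**Figure D1:**
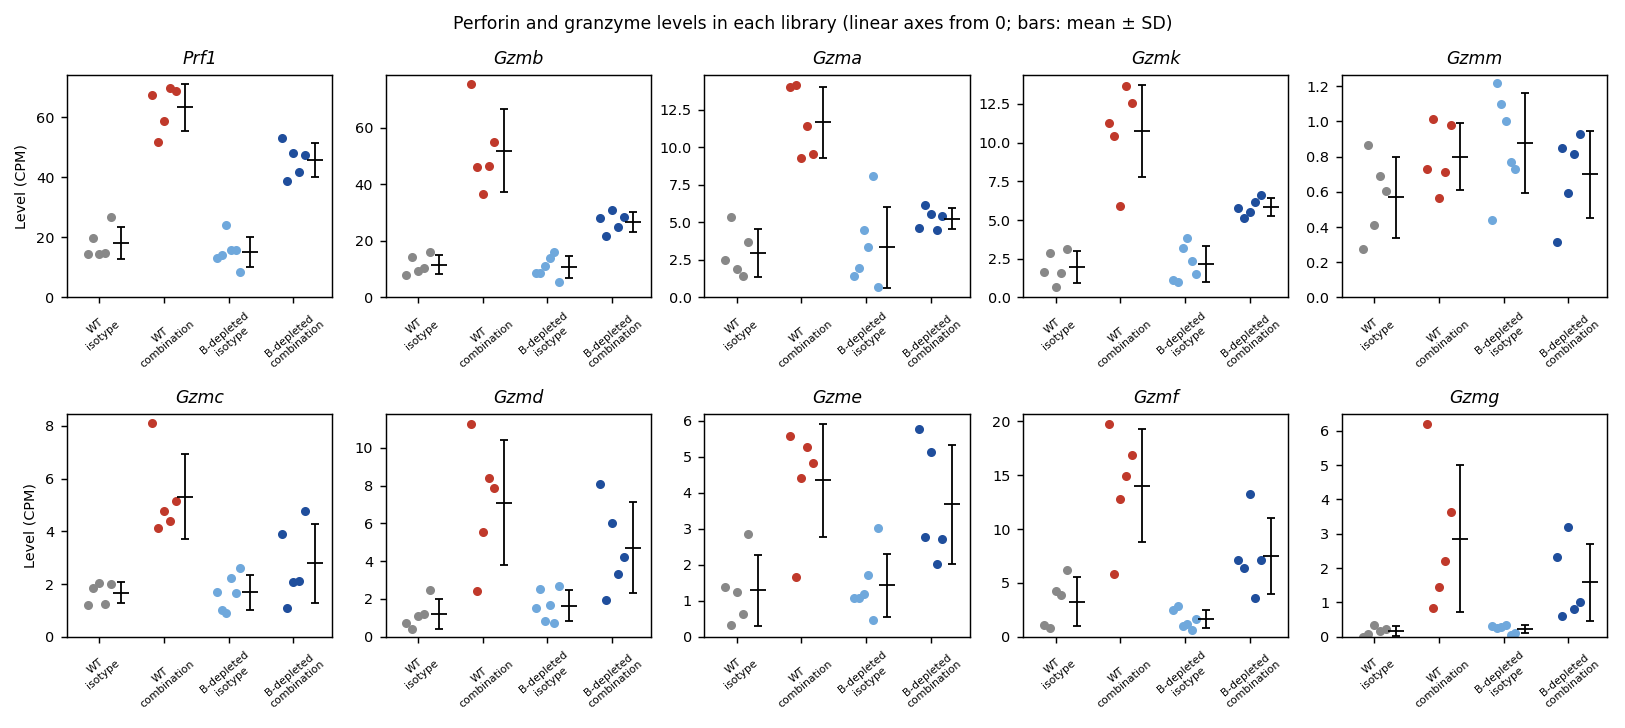
Level of each gene in every library, in CPM on linear axes from 0, for the 4 arms; each point is 1 library and the bar is the arm mean ± SD (n = 5, 5, 6 and 5). For Prf1 and Gzmb the combination libraries of each background lie above its isotype libraries, whereas Gzmm overlaps between arms.

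Perforin rose with the antibodies in both backgrounds. In replicate order Prf1 was at 14.5, 20.0, 14.5, 14.7 and 26.7 CPM in WT isotype and at 67.4, 51.7, 58.8, 69.8 and 68.9 CPM in WT combination. It was at 13.2, 14.1, 24.0, 15.7, 16.0 and 8.45 CPM in B-depleted isotype and at 53.2, 38.8, 48.1, 41.9 and 47.5 CPM in B-depleted combination. The combination libraries were all above the isotype libraries of their background, and 4 of 5 B-depleted combination libraries were below all WT combination libraries. The rise was 1.83 ± 0.20 on the log2 scale in WT (SE, edgeR adjusted p = 1.81e-05) and 1.62 ± 0.19 in B-depleted tumours (adjusted p = 0.00117), where Prf1 had the smallest p of all 19061 genes. Between the combination arms the difference, B-depleted minus WT, was -0.48 ± 0.20 (adjusted p = 0.0709) and did not pass, except without B-depleted isotype replicate 3 or 6 (adjusted p = 0.0421 and 0.0418). The interaction estimate was -0.22 ± 0.28 with a 95% interval from -0.79 to 0.36 (edgeR adjusted p = 0.632).

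Granzyme B rose in both backgrounds and, under the combination, was lower in B-depleted than in WT tumours. Gzmb was at 8.06, 14.3, 9.23, 10.3 and 16.1 CPM in WT isotype and at 75.4, 46.1, 36.8, 46.5 and 55.1 CPM in WT combination. In B-depleted isotype it was at 8.70, 8.79, 11, 13.8, 16.3 and 5.53 CPM, and in B-depleted combination at 28.1, 21.7, 30.8, 25.1 and 28.4 CPM. The isotype arms overlapped throughout, and no B-depleted combination library reached the lowest WT combination library. The rise was 4.54-fold in WT (log2 2.18 ± 0.24, edgeR adjusted p = 1.81e-05) and 2.55-fold in B-depleted tumours (1.35 ± 0.23, adjusted p = 0.0137). Under the combination the log2 difference, B-depleted minus WT, was -0.96 ± 0.24 (edgeR adjusted p = 0.0109), a call kept in 21 of 21 refits that each left out 1 library. The call in B-depleted tumours was kept in 20 of 21 and was lost without B-depleted isotype replicate 2 (adjusted p = 0.0538). The interaction estimate was -0.83 ± 0.33 (95% interval -1.52 to -0.15, unadjusted p = 0.0201, edgeR adjusted p = 0.140), so a difference between the 2 responses was not called.

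Granzymes A and K, the pair on chromosome 13, rose in WT tumours. Gzma was at 2.48, 5.32, 1.88, 1.43 and 3.69 CPM in WT isotype and at 14, 14.2, 9.25, 11.4 and 9.51 CPM in WT combination. In B-depleted isotype it spread from 0.678 through a median of 2.66 to 8.07 CPM, and in B-depleted combination it was at 4.62, 6.16, 5.58, 4.47 and 5.43 CPM. B-depleted isotype replicate 5, at 8.07 CPM, was above every B-depleted combination library. The log2 change was 2.00 ± 0.44 in WT (edgeR adjusted p = 0.00140) and 0.69 ± 0.42 in B-depleted tumours (adjusted p = 0.466, 95% interval -0.19 to 1.57).

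Under the combination, Gzma was lower in B-depleted than in WT tumours, with a log2 difference of -1.16 ± 0.43 (edgeR adjusted p = 0.0490), close to the threshold. That call was kept in 7 of the 21 refits without 1 library, with adjusted p from 0.0238 to 0.0972. It was lost without WT isotype replicate 1 or 5, WT combination replicate 1, 2, 4 or 5, B-depleted isotype replicate 2, 3 or 4, or any B-depleted combination library. The WT and B-depleted combination libraries did not overlap.

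Gzmk marks effector memory-like CD8 T cells. It was at 1.66, 2.86, 0.647, 1.60 and 3.14 CPM in WT isotype and at 11.2, 10.4, 5.91, 13.6 and 12.6 CPM in WT combination. In B-depleted isotype it was at 1.13, 1.03, 3.21, 3.84, 2.37 and 1.51 CPM and in B-depleted combination at 5.78, 5.16, 5.51, 6.17 and 6.64 CPM. Isotype and combination libraries did not overlap in either background. The rise in WT was 2.47 ± 0.36 (log2, edgeR adjusted p = 8.95e-05); the change in B-depleted tumours, 1.45 ± 0.34, had an adjusted p of 0.0668 and did not pass, and DESeq2 gave 0.00415. By edgeR it passed without WT isotype replicate 3 or B-depleted isotype replicate 3 or 4. Between the combination arms it was -0.89 ± 0.34 (edgeR adjusted p = 0.0563), passing without WT isotype replicate 3, WT combination replicate 3, B-depleted isotype replicate 1, 2 or 4, or B-depleted combination replicate 5.

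The 5 neighbours of Gzmb rose in WT tumours, and Gzmg by the most of all 10 genes. Gzmg was at 0, 0.0665, 0.353, 0.172 and 0.221 CPM in WT isotype and at 6.19, 0.825, 1.45, 2.19 and 3.65 CPM in WT combination. It was at 0.0593 to 0.334 CPM in B-depleted isotype, with a median of 0.266, and at 2.31, 0.616, 3.20, 0.812 and 1.00 CPM in B-depleted combination. The combination libraries were above the isotype libraries in each background. The log2 change was 4.08 ± 0.66 in WT (edgeR adjusted p = 0.000157) and 2.81 ± 0.62 in B-depleted tumours (adjusted p = 0.0534), both against arms with few counts. The change in B-depleted tumours passed without WT combination replicate 1 or 2, B-depleted isotype replicate 3 or B-depleted combination replicate 2.

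Gzmf carried the most counts of these 5. It was at 1.10, 0.798, 4.23, 3.89 and 6.23 CPM in WT isotype and at 19.7, 5.84, 12.8, 14.9 and 16.9 CPM in WT combination. In B-depleted isotype it was at 2.50, 2.82, 1.01, 1.23, 0.653 and 1.62 CPM and in B-depleted combination at 7.14, 6.39, 13.2, 3.57 and 7.14 CPM. WT isotype replicate 5 lay above WT combination replicate 2, whereas the B-depleted arms did not overlap. The rises were 2.12 ± 0.48 (edgeR adjusted p = 0.00166) and 2.20 ± 0.48 (adjusted p = 0.0493). The call in B-depleted tumours was kept in 3 of 21 refits (without WT isotype replicate 1 or 2, or B-depleted combination replicate 4), with adjusted p up to 0.121, and the interaction estimate was 0.08 ± 0.64.

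Gzmc rose in WT tumours by 1.68 ± 0.35 (log2, edgeR adjusted p = 0.000866), from 1.21 to 2.06 CPM in the isotype libraries to 4.12 to 8.10 CPM under the combination. In B-depleted tumours its libraries overlapped, at 0.916 to 2.61 and 1.08 to 4.78 CPM (0.73 ± 0.34, adjusted p = 0.331). Under the combination it was lower in B-depleted than in WT tumours, with a log2 difference of -0.93 ± 0.34 (edgeR adjusted p = 0.0453). There 4 of 5 B-depleted libraries were below all WT ones, and the call was kept in 7 of 21 refits. It was lost without WT combination replicate 1, the highest of its arm (adjusted p = 0.113), and without WT combination replicate 2, 4 or 5, WT isotype replicate 2, 4 or 5, B-depleted isotype replicate 1, 4 or 5, or B-depleted combination replicate 1, 2, 3 or 4.

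Gzmd ran from 0.399 to 2.48 CPM in WT isotype and from 2.41 to 11.2 CPM in WT combination, a log2 rise of 2.59 ± 0.49 (edgeR adjusted p = 0.000443). Gzme ran from 0.333 to 2.87 and from 1.65 to 5.57 CPM, a rise of 1.76 ± 0.49 (adjusted p = 0.00621). For both genes 4 of 5 WT combination libraries were above all isotype libraries, the exception being replicate 2. In B-depleted tumours the changes of Gzmd (1.51 ± 0.45, edgeR adjusted p = 0.143) and Gzme (1.35 ± 0.46, adjusted p = 0.197) did not pass. DESeq2 called 6 members in that comparison, Prf1, Gzmb, Gzmf, Gzmg, Gzmk and Gzmd, where it called 2.11% of its genes.

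Gzmm, found in NK cells and innate-like T cells, was the lowest gene of the set in the combination arms. It was at 0.276, 0.865, 0.412, 0.687 and 0.607 CPM in WT isotype and at 0.731, 1.01, 0.566, 0.712 and 0.977 CPM in WT combination. In B-depleted isotype it was at 0.438, 1.22, 1.10, 1.00, 0.771 and 0.730 CPM and in B-depleted combination at 0.315, 0.847, 0.595, 0.812 and 0.928 CPM. The arms overlapped in each background. The log2 changes with the combination were 0.51 ± 0.33 in WT (edgeR adjusted p = 0.198, 95% interval -0.17 to 1.20) and -0.27 ± 0.32 in B-depleted tumours (adjusted p = 0.722, 95% interval -0.93 to 0.40).

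**Figure D2:**
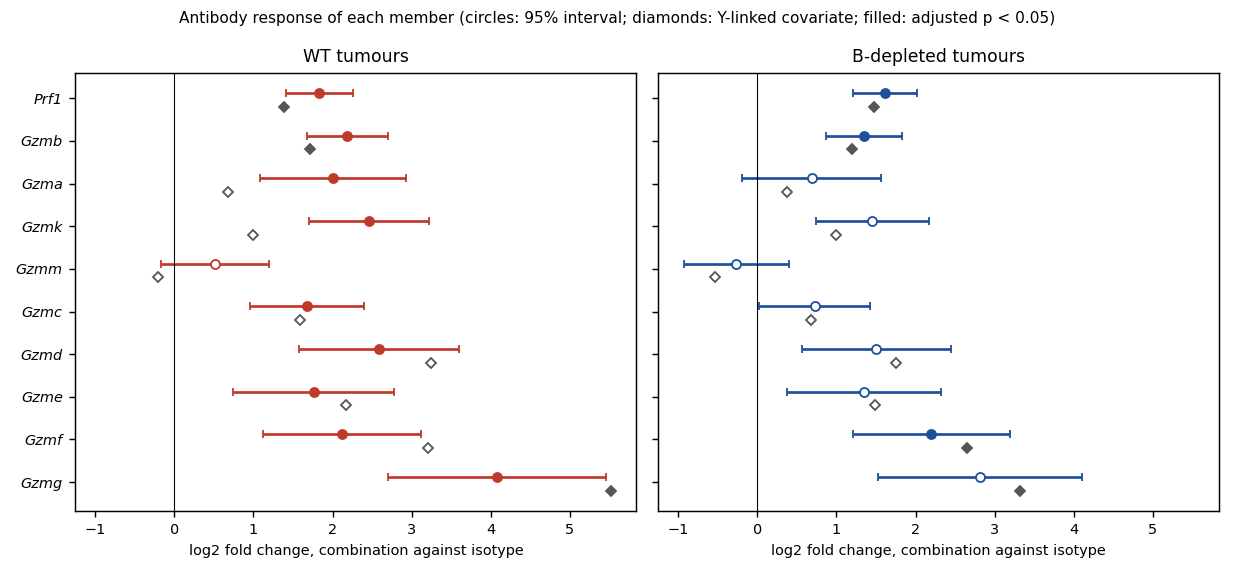
Log2 fold change of each gene, combination against isotype, in WT and B-depleted tumours; circles are estimates from the fit of all 21 libraries with 95% intervals, diamonds the estimates with the Y-linked transcript sum as covariate, and filled symbols have an adjusted p under 0.05. In WT tumours 9 circles are filled and in B-depleted tumours 3, and with the covariate 3 and 4 diamonds are.

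A sum of 4 Y-linked genes moved with the arms. It ran from 47.6 to 79.2 CPM in WT isotype and from 135 to 251 in WT combination. In B-depleted tumours it ran from 46.3 to 119 under isotype and from 85.9 to 169 under the combination. All 4 genes were called higher in WT combination, beside 25.0% of all genes. Under the combination all 4 were called lower in B-depleted than in WT tumours, beside 13.5% of all genes. The sum did not overlap between the WT arms, so the covariate and the antibody effect cannot be told apart in WT tumours. What the sum stands for was not tested. With this sum in the fit as a covariate, 3 of 10 members were called in WT tumours, beside 0.404% of all genes: Gzmb (1.71 ± 0.37, edgeR adjusted p = 0.04998), Prf1 (1.39 ± 0.30, adjusted p = 0.04998) and Gzmg (5.52 ± 1.03, adjusted p = 0.0300). The WT values of Gzma and Gzmk were then 0.68 ± 0.60 and 1.00 ± 0.44, against 2.00 and 2.47 without it. In B-depleted tumours 4 were called with the covariate, Prf1, Gzmb, Gzmf and Gzmg, beside 0.163% of all genes, with Prf1 at 1.48 ± 0.20 (edgeR adjusted p = 0.00838). Under the combination, B-depleted against WT, 0 were called with it, beside 0.0210% of all genes, and Gzmb was at -0.70 ± 0.28 (edgeR adjusted p = 0.350).

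T-cell transcripts moved with the killer genes. The 11 T-cell markers summed to 74.0 to 152 CPM in WT isotype, 342 to 518 in WT combination, 54.0 to 188 in B-depleted isotype and 199 to 273 in B-depleted combination, and none was at 0 in any arm. In WT tumours 11 of 11 rose and in B-depleted tumours 2 of 11, beside 25.0% and 0.304% of all genes called higher. Under the combination 11 of 11 were lower in B-depleted than in WT tumours, beside 13.5% of all genes. The CD8 genes Cd8a and Cd8b1 rose in both backgrounds. Cd8a rose by 1.99 ± 0.25 in WT and 1.47 ± 0.24 in B-depleted tumours (edgeR adjusted p = 3.82e-05 and 0.0134). Between the combination arms 0 of the 2 CD8 genes were called lower, although 2 had an unadjusted edgeR p under 0.05 (median log2 difference -0.65). Of 3 CD4 T-cell markers (Cd4, Cd40lg and Icos), 2 were tested, and 2 were called lower in B-depleted tumours there (median -1.63). The 8 NK markers summed to 9.23 to 21.7 CPM in WT isotype, 21.4 to 36.1 in WT combination, 11.8 to 22.7 in B-depleted isotype and 13.6 to 19.3 in B-depleted combination. Of these, 3 rose in WT tumours and 0 in B-depleted tumours, beside 25.0% and 0.304% of all genes called higher. Under the combination 3 of the 8 NK markers were lower in B-depleted than in WT tumours, beside 13.5% of all genes. There 5 had an unadjusted edgeR p under 0.05, and the median log2 difference was -1.17. The part of either cell type in each member's level was not tested.

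To set the members against the T-cell signal, each was divided by the CD3 counts (Cd3d, Cd3e and Cd3g) of its own library. CD3 itself was at 43.4 ± 11.7 CPM under isotype and 161 ± 20.8 under the combination in WT, and at 41.1 ± 19.8 and 89.7 ± 9.98 CPM in B-depleted tumours (SD, n = 5, 5, 6 and 5). Gzmb stood at 27.2 ± 5.62, 32.5 ± 9.01, 28.2 ± 6.92 and 30.6 ± 7.29 counts per 100 CD3 counts in the same order. Prf1 stood at 42.5 ± 9.05, 39.7 ± 4.80, 40.03 ± 8.26 and 52.0 ± 10.6. These ratios overlapped between arms. Of 40 ratio tests (10 members in 4 comparisons), 0 passed after Benjamini-Hochberg adjustment. The smallest exact permutation p possible was 0.00794 for 5 against 5 libraries and 0.00433 for 5 against 6. No single test could pass the adjustment on its own, so the absence of calls does not show that the ratios were unchanged. Before adjustment, 3 had an exact permutation p under 0.05: Gzmm in both antibody comparisons and Gzmk in WT.

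Gzmm was the only member whose CD3 ratio did not overlap between groups, in both antibody comparisons. CD3 itself did not overlap there, at 26.8 to 55.8 and 131 to 187 CPM in WT and 17.3 to 72.3 and 75.1 to 103 CPM in B-depleted tumours. Gzmm in CPM overlapped, and any gene that does not rise with CD3 falls in this ratio. How many of all genes do so was not computed. The Gzmm ratio is therefore not shown to be particular to this gene. It was 0.731, 1.61, 1.65, 1.82 and 1.19 counts per 100 CD3 counts in WT isotype and 0.482, 0.664, 0.458, 0.397 and 0.591 in WT combination. In B-depleted isotype it was 1.71, 4.00, 1.58, 2.01, 1.71 and 4.37, and in B-depleted combination 0.410, 0.859, 0.842, 0.930 and 1.08. The log2 difference was -1.39 in WT (exact two-sided permutation p = 0.00794, the smallest that 5 against 5 allows, adjusted p = 0.159) and -1.57 in B-depleted tumours (exact permutation p = 0.00433, the smallest that 6 against 5 allows, adjusted p = 0.159). The ratio of Gzmk was higher by 0.63 in WT combination (log2, exact permutation p = 0.0317, adjusted p = 0.325). The ratio of Prf1 was higher by 0.37 in B-depleted than in WT combination (exact permutation p = 0.0556, adjusted p = 0.325).

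**Figure D3:**
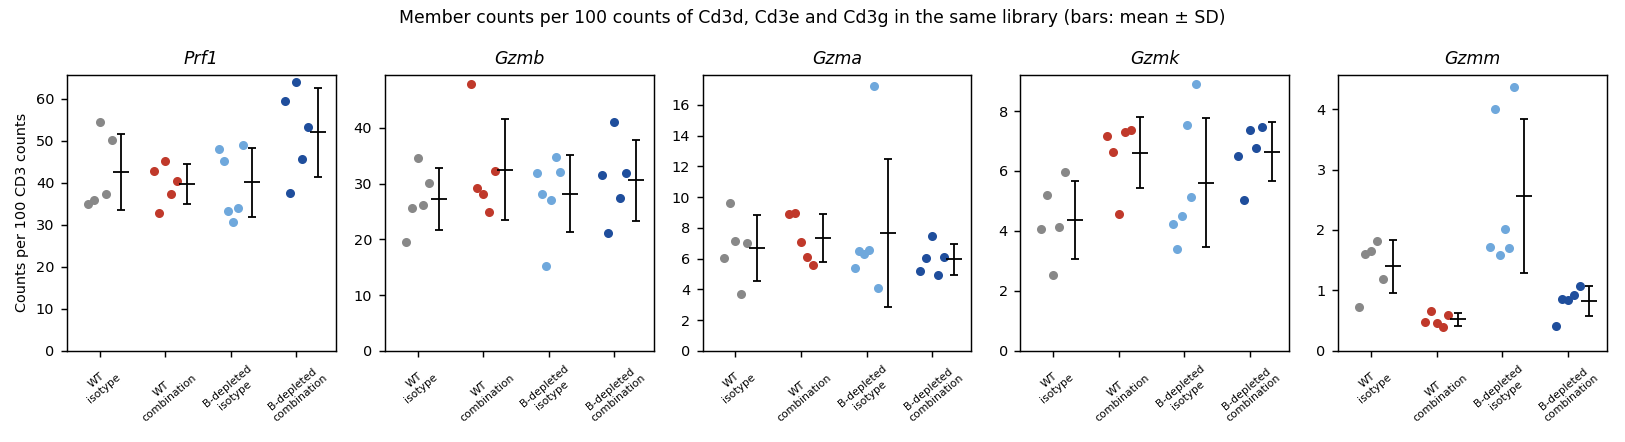
Counts of Prf1, Gzmb, Gzma, Gzmk and Gzmm per 100 counts of Cd3d, Cd3e and Cd3g in the same library, on linear axes from 0; points are libraries and bars the arm mean ± SD. Gzmm, whose CPM overlaps between arms, is lower per CD3 count in both combination arms, where CD3 is higher, than in their isotype arms. Gzmb overlaps between all arms.

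Within the arms some of the genes varied together. Correlations of log2 CPM were taken over the 21 libraries after each arm's mean was removed, with permutation within arms (100000 draws) and adjustment over 65 relations; libraries share depth and tissue make-up. Gzmb and Prf1 had r = 0.71 and rho = 0.71 (permutation p = 0.00401 and 0.00184, adjusted p = 0.0237 and 0.0156), and r was 0.64 without the 2 libraries farthest from the median of Gzmb. Gzma and Gzmb had r = 0.77 and rho = 0.70 (permutation p = 0.00191 and 0.00559, adjusted p = 0.0155 and 0.0290; 0.55 without the 2 farthest). Gzma and Cd3e had r = 0.82 and rho = 0.85 (permutation p = 0.00384 and 0.000890, adjusted p = 0.0237 and 0.0101; 0.79 without the 2 farthest). Gzmk and Cd8a had r = 0.76 and rho = 0.83 (permutation p = 0.00188 and 0.000550, adjusted p = 0.0155 and 0.00894; 0.73 without the 2 farthest).

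Of the 6 pairs among Gzma, Gzmb, Gzmk and Prf1, 2 passed the adjustment for r and 5 for rho. Gzmd, Gzme, Gzmf and Gzmg also varied together, with 4 of 6 pairs passing for r and 4 for rho. Gzmd and Gzmf had r = 0.79 and rho = 0.77 (permutation p = 0.000150 and 0.000260, adjusted p = 0.00683 and 0.00585; 0.71 without the 2 farthest). Gzmf and Gzmg had r = 0.71 and rho = 0.68 (permutation p = 0.000380 and 0.000930, adjusted p = 0.00715 and 0.0101; 0.68 without the 2 farthest). With Cd3e the 4 genes had r from -0.41 to -0.07 (permutation, adjusted p from 0.173 to 0.795 for r), and with Gzmb from -0.18 to 0.37. Gzmd, Gzme and Gzmg hold many 50-base windows in common, and the part of shared reads in these values was not tested.

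**Figure D4:**
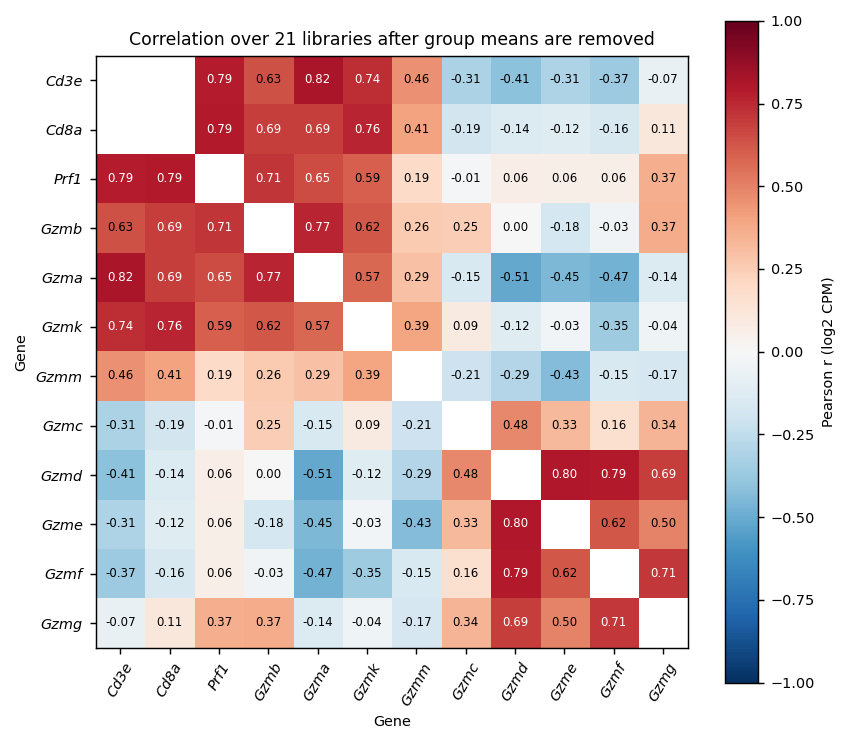
Pearson r of log2 CPM between the genes, and with Cd3e and Cd8a, over 21 libraries after each arm's mean was removed; red is positive and blue negative. Prf1, Gzmb, Gzma and Gzmk form a red block with Cd3e and Cd8a (r from 0.57 to 0.82), and Gzmd to Gzmg form another (0.50 to 0.80).

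Over 16628 genes of at least 1 CPM, those whose levels within arms were most like Gzmb were Clic5 (r = 0.78), Gm49730 (0.76), Ubd, AW112010 and Zfp512 (0.75 each). For Prf1 they were Klrd1, which encodes the CD94 receptor chain (0.83), Cxcr6, a chemokine receptor of tissue T cells (0.83), Xkr8, AW112010 (both 0.81) and Clic5 (0.80). For Gzma they were Cxcl9, an interferon-gamma induced chemokine that draws T cells (0.93), Ubd (0.90), F2rl2, Phf11d and Gbp4 (0.89 each). These r describe 21 libraries.

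The rest of the killing machinery was followed in gene lists. Of 12 genes of granule formation and release, 8 rose in WT tumours (median log2 change 0.88) and 3 in B-depleted tumours (0.37). Under the combination 7 were lower in B-depleted than in WT tumours (-0.39). In the same 3 comparisons and directions, 25.0%, 0.304% and 13.5% of all genes were called. Nkg7, a granule membrane protein, rose by 2.20 ± 0.26 in WT and 1.44 ± 0.24 in B-depleted tumours (edgeR adjusted p = 2.36e-05 and 0.0137). Cst7, cystatin F, which inhibits granule cathepsins, rose by 2.09 ± 0.21 and 1.14 ± 0.20 (adjusted p = 1.22e-05 and 0.0159). Rab27a, which docks granules at the membrane, rose by 1.58 ± 0.20 and 0.98 ± 0.19 (adjusted p = 3.99e-05 and 0.0312). M6pr, a mannose 6-phosphate receptor, rose by 0.41 ± 0.05 in WT (edgeR adjusted p = 5.14e-05). The proteases that activate granzymes, Ctsc (1.55 ± 0.27, edgeR adjusted p = 0.000252) and Ctsh (0.65 ± 0.11, adjusted p = 0.000260), rose in WT, 2 of 2; neither passed in B-depleted tumours, at 0.78 ± 0.25 (adjusted p = 0.173) and 0.36 ± 0.11 (adjusted p = 0.139). Both genes are also expressed by myeloid cells, and the 7 macrophage markers summed to 695 to 1458 CPM in WT isotype, 1684 to 3349 in WT combination, 529 to 1248 in B-depleted isotype and 960 to 2045 in B-depleted combination; their part was not tested.

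Of the death ligands and cytokines of killer cells, 10 of 10 rose in WT tumours (median 1.77) and 2 of 10 in B-depleted tumours (1.18). Under the combination 4 of 10 were lower in B-depleted than in WT tumours (-0.79). The shares of all genes called in these directions were 25.0%, 0.304% and 13.5%. Ifng, interferon-gamma, rose by 2.33 ± 0.32 in WT and 1.51 ± 0.31 in B-depleted tumours (edgeR adjusted p = 5.85e-05 and 0.0373). Fasl, the Fas ligand, rose by 1.85 ± 0.29 and 1.39 ± 0.27 (adjusted p = 0.000113 and 0.0312). The chemokines Ccl5 (2.33 ± 0.35, edgeR adjusted p = 9.29e-05) and Ccl4 (1.96 ± 0.38, adjusted p = 0.000529) rose in WT. Of 11 transcription factors of cytotoxic cells, 8 rose and 1 fell in WT tumours, among them Tbx21 (1.94 ± 0.29, edgeR adjusted p = 0.000102) and Eomes (2.01 ± 0.41, adjusted p = 0.000862), the T-box factors of killer cells. In B-depleted tumours 0 of 11 passed by edgeR, with 7 at an unadjusted p under 0.05 (Tbx21 0.97 ± 0.28, adjusted p = 0.132).

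Serpins and granzyme substrates changed in both directions in WT tumours, where 50.0% of all genes were called either way. In which cells they changed was not tested. Of 6 serpins that inhibit granzymes or related proteases, Serpina3g rose (1.39 ± 0.25, edgeR adjusted p = 0.000344) and Serpinb6a fell (-0.40 ± 0.09, adjusted p = 0.00173) in WT tumours, and 0 passed in B-depleted tumours by edgeR, with 1 at an unadjusted p under 0.05. Of 11 granzyme substrates and death proteins, 3 rose and 5 fell in WT, beside 25.0% of all genes called higher and 25.0% called lower. Apex1, a DNA repair enzyme cut by granzyme A, had a log2 change of -0.75 ± 0.11 (edgeR adjusted p = 7.60e-05). The hepatocyte and hepatoma markers fell in WT too, 8 of 8; their part in the fall of substrates was not tested. Of 8 other proteases of the chromosome 14 cluster, 4 passed the filter on low counts and 0 of those were called in WT by edgeR, 2 having an unadjusted p under 0.05: Mcpt4 (1.42 ± 0.64, adjusted p = 0.0705) and Cma1 (1.45 ± 0.66, adjusted p = 0.0742), both mast-cell proteases.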

How the data were processed

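Messenger RNA of 21 tumours was sequenced (TruSeq Stranded mRNA, per the labels' protocols). The authors deposited raw read counts per Ensembl gene. Cutadapt 2.4, STAR 2.7.2a and GRCm38 were used, per the submitters' processing notes; the counting program, its strand setting and annotation were not given in the sources used here. Arms were taken from the titles.

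Symbols came from GENCODE M21 (55227 of 55487 identifiers matched). Counts were filtered with filterByExpr by arm (19061 genes), scaled by TMM and fitted in edgeR 4.0.16 (R 4.3.3) by the robust quasi-likelihood method, with 21 libraries in 1 model of 4 arms; the calling threshold was 0.05 after Benjamini-Hochberg adjustment across all genes of a comparison. DESeq2 1.42.0 was an alternative. Ratios to CD3 (pseudocount 0.5) were compared by exact permutation over every split of the libraries compared, in Python 3.11.15. Correlations used log2 CPM with a prior count of 2. The edgeR fit was tested on simulated data, and the permutation test was checked against SciPy 1.17.1 on a random draw. Promoters are RefSeq's, with 11 entries for the 10 genes. The depth of 9.52 to 19.17 M counts makes 1 CPM at least 9.52 counts.

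The members were set by symbol, with no measured value in the rule. Members, lists, tests and the naming rule (all members in every comparison, up to 4 called genes of each list by smallest p, or up to 2 as values) were chosen with earlier results of these data known.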

Additional observations from a re-analysis of the deposited data

Results flagged for a closer look

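Gzmc in WT combination replicate 1 was at 8.10 CPM, far from the other 4 libraries of its arm, of which the nearest was at 5.15 CPM; the gap was 0.743 of the arm's whole range. Of the 40 sets of values examined (10 genes in 4 arms), this was the only set with such a gap. By chance about 1 set in 20 has one, so 1 in 40 is not more than chance gives. The same library was also the highest of its arm for Gzmb, Gzmd, Gzme, Gzmf and Gzmg.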

How the results depend on the processing

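In WT tumours, 9 members were called in each alternative except the Y-linked covariate, beside 21.6% to 53.0% of all genes. With that covariate 3 were called, beside 0.404% of all genes. In B-depleted tumours the 3, beside 0.341% of all genes, became 6 with DESeq2, beside 2.11%. With only the 2 groups compared, 1 of the 9 members tested was called, beside 0.0340%. With a replicate block by the number in the sample codes, 1 was called, beside 0.0734%. Without 1 library in turn, 1 to 4 were called (1 without B-depleted isotype replicate 2), beside 0.0579% to 0.927%. Between the combination arms the 3, beside 29.1% of all genes, became 1 without a filter on low counts, beside 8.45%. With the Y-linked covariate 0 were called, beside 0.0210%. Without 1 library in turn, 1 to 4 were called, beside 11.3% to 39.3%. The count was 1 without WT isotype replicate 5 or WT combination replicate 1, 2, 4 or 5. It was also 1 without B-depleted combination replicate 1, 2, 3 or 4. The cause was not tested.

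Title numbers are shared between arms, and the labels do not say whether they pair samples. Same-numbered libraries had deviations correlated at -0.22 to 0.37 in the WT comparison and -0.26 to 0.30 in the B-depleted one. The range was -0.36 to -0.044 between the isotype arms and -0.059 to 0.55 between the combination arms. Medians were 0.012, 0.041, -0.22 and 0.088, beside 0.0036, 0.029, 0.078 and -0.022 for other numbers. So few pairs cannot decide whether samples were paired. Of 5 pairs in each, 2, 1, 0 and 3 correlated best with their own number. With the replicate block by title number, 9, 2, 0, 4 and 0 members were called, beside 50.3%, 0.173%, 0.00525%, 31.9% and 0% of all genes.

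Log2 changes that turned sign with the Y-linked covariate were those of Gzmm in WT (-0.21) and between the combination arms (0.22), of Gzma (-0.10) and Gzmk (-0.016) between the isotype arms, and the interactions of Gzmf (-0.55) and Prf1 (0.088). Between the isotype arms, title blocks gave -0.20 for Gzmc and -0.092 for Gzme, code blocks -0.17 for Gzmc, and counts thinned to the shallowest library -0.18 for Gzmc and -0.016 for Gzme. Without WT isotype replicates 1 and 2, low in liver transcripts, Gzmc, Gzme and Gzmg were at -0.065, -0.13 and -0.19. Without the 4 B-depleted libraries with B-cell transcripts, Gzma and Gzmk were at -0.68 and -0.072. These 2 sets were left out after seeing the data. The Gzmf interaction was -0.084 with title blocks, -0.012 thinned and -0.14 without those 4 libraries, where that of Prf1 was 0.075. Without 1 library in turn, isotype-arm changes ran from -0.35 to 0.46 (Gzma), -0.29 to 0.0020 (Gzmb), -0.16 to 0.14 (Gzmc), -0.25 to 0.64 (Gzme) and -0.13 to 0.35 (Gzmk), and the Gzmf interaction from -0.27 to 0.33. None of the results that turned sign had been called. With CD8 in place of CD3, the B-depleted ratio differences were -0.19 for Gzmb and -0.0085 for Gzmk; with NK markers the WT ratio difference of Prf1 was 0.67. Without 1 library in turn they ran from -0.037 to 0.26 (Gzmb, B-depleted) and -0.15 to 0.012 (Prf1, WT). Depth limits Gzmg and Gzmm most.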
